A study of Homo sapiens with 6 samples.

Results

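Genes of sterol and fatty acid synthesis were measured in HK2 cells (HK-2), a line of immortalised proximal tubule cells from human kidney, with or without TGF-β1. The 32 genes were given by name, and each was read from its entry on a primary chromosome. They comprised 18 genes of sterol synthesis, 6 genes of SREBP control and sterol uptake, and 8 genes of fatty acid synthesis and desaturation, out of 41497 named entries. All 32 passed the filter on low counts, as did 14860 genes in all. RNA-seq was done on 3 control libraries from untreated cells and 3 libraries from cells exposed to TGF-β1, all collected at 24 h. Both groups were wild type (WT) HK2 cells, a single line, maintained in DMEM-F12 with fetal bovine serum and antibiotics. The methods of the study describe exposure to TGF-β in serum-free medium. They give a dose for TGF-β experiments with these cells in general and another for a respiration assay, but none for the sequenced cells by name, and do not say whether the control cells were also without serum.

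Cholesterol is built from acetyl-CoA through mevalonate, farnesyl diphosphate, squalene and lanosterol, and fatty acids are built from the same precursor by carboxylation, elongation and desaturation. The sterol regulatory element-binding proteins (SREBPs), made by SREBF1 and SREBF2, switch on most genes of both routes. SCAP carries them from the endoplasmic reticulum to the Golgi for cleavage when sterols are low, and the INSIG proteins hold them back when sterols are high. Proximal tubule cells draw most of their energy from the oxidation of fatty acids, and lipid can accumulate in them after injury.

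The 32 genes moved in both directions. After TGF-β1, 7 rose, 7 fell and 18 did not pass the test (called: adjusted p under 0.05, edgeR quasi-likelihood test over all genes tested). Among all genes tested, 44.3% were called, 22.2% higher and 22.1% lower, so 14 called of 32 (43.8%) was close to the background. FDFT1 was among the higher genes by its primary entry only, and 6 were higher and 7 lower when the entries of a name were summed. The median log2 fold change was -0.04 over the 32 genes and 0.01 over all genes tested. The 3 control and 3 TGF-β1 values did not overlap for 8 genes that were higher and 8 that were lower, beside 27.9% higher and 27.7% lower (55.6% in all) of the genes tested. Scaling by total counts only moved the median of all genes by -0.11, with 2134 of 6724 called genes higher against 3294 of 6582. It gave 14 called members as well, but with more lower than higher in each role. Sterol synthesis had 2 higher and 4 lower, SREBP control and uptake 1 and 3, and fatty acid genes 1 and 3. The largest changes in genes with a single entry were in STARD4, which rose 2.29-fold, and ELOVL6, which fell to 0.454 of control. In bulk RNA, fewer cells that express a gene and less RNA per cell cannot be told apart. The labels do not say that replicates came from separate cultures, so p-values measure only the spread between these libraries.

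**Figure D1:**
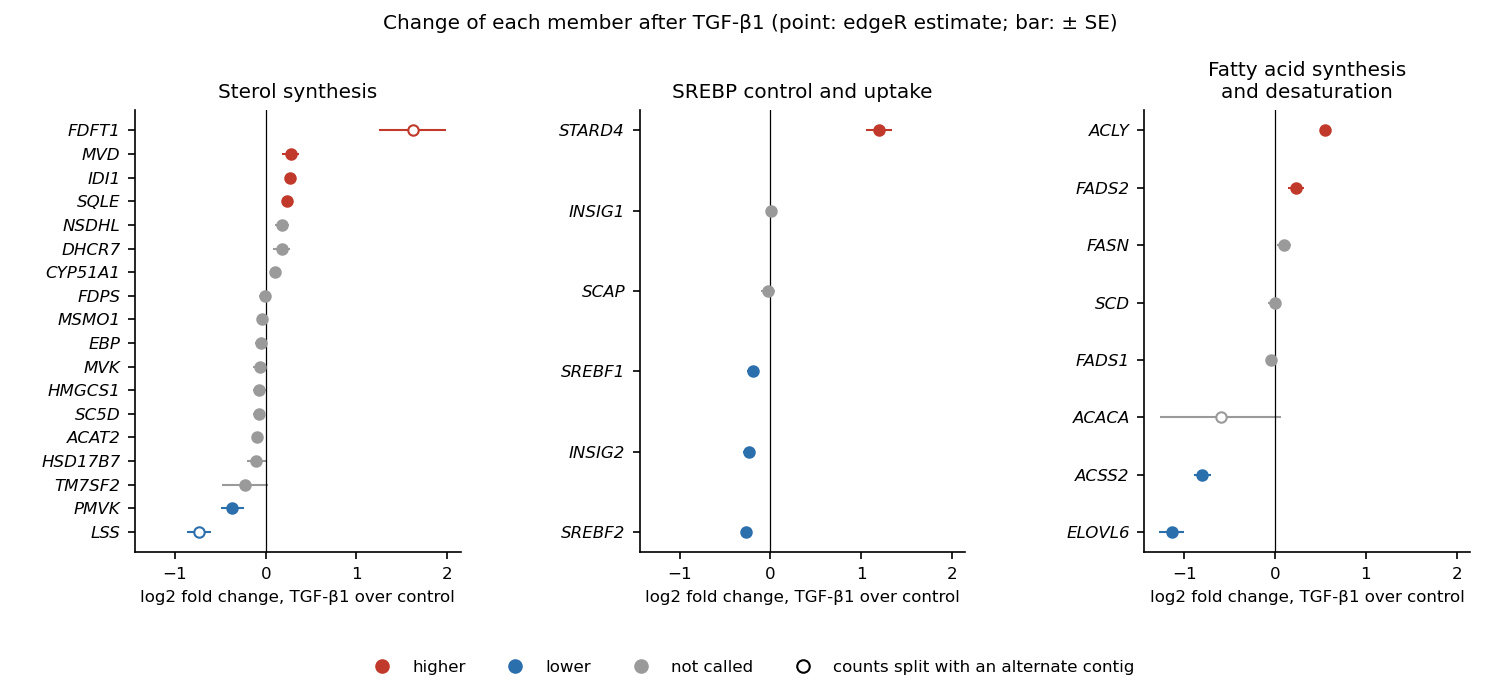
Log2 fold change (x axis, TGF-β1 over control, 3 libraries a group) of each of the 32 genes (y axis) in 3 panels by role. Points are edgeR estimates, bars are ± SE, colours give the call and open points mark the 3 genes whose counts were split with an alternate contig. STARD4 and FDFT1 lie farthest to the right, ELOVL6 farthest to the left, and most others lie close to 0.

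Libraries held 21.9 to 26.9 megacounts. TGF-β1 replicate 1 stood apart from its group, with a chi-square per gene of 16.6 and 18.0 against the others, where the other pairs within a group gave 4.20 to 5.86. The exposure showed in all 8 TGF-β response genes checked, from a log2 fold change of 0.98 in FN1 to 3.3 in COL1A1. Of 15 markers of tubule and epithelium, 8 were tested, with 4 higher and 3 lower (87.5% called, beside 44.3% of all genes tested). AQP1 (log2 fold change 2.10), CUBN (0.82), KRT8 (0.65) and KRT18 (0.58) were higher, and EPCAM (-1.25), PAX8 (-0.73) and GGT1 (-0.58) lower. AQP1 and CUBN had mean levels under 2 CPM in both groups. PAX8 had 251 ± 13.9 CPM (counts scaled to library size; SD, n = 3) in control and 151 ± 12.1 after TGF-β1, while LRP2 and SLC22A6 had no count in any library and HNF4A was near 0. The summed level of these markers was 990 to 1058 CPM in control libraries and 1194 to 1381 CPM in TGF-β1 libraries, with KRT8 and KRT18 the main share. The 6 fibroblast markers summed to 59.9 to 69.3 CPM in control libraries and 58.2 to 59.7 CPM in TGF-β1 libraries, most of it LUM, which fell (-0.28). Among the others, PDGFRB rose from 0.551 to 5.79 CPM (adjusted p = 1.07e-07) and COL6A3 from 0.112 to 1.55 CPM (adjusted p = 4.31e-06), THY1 fell from 0.895 to 0.269 CPM (adjusted p = 0.00164), and DCN and PDGFRA were near 0. The 5 leukocyte markers, mostly CD68, summed to 95.1 to 104 CPM and then to 61.5 to 85.3 CPM. The 5 endothelial markers summed to 0.940 to 1.68 CPM and then to at most 0.0955, and the 6 adipocyte markers to 2.04 to 2.45 and 1.34 to 1.43, with ADIPOQ, LEP and CIDEA at 0. Proliferation markers divided into 3 higher, 5 lower and 8 not called (50% called, beside 44.3% of all genes tested). MKI67 had 763, 759 and 792 CPM in control and 526, 689 and 679 after TGF-β1 (log2 fold change -0.29, edgeR adjusted p = 0.033). The part of any of these in the results was not tested.

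The bases before the start of 4 genes are shown because these known targets of SREBPs differed in response. STARD4 and ACLY rose, SREBF2 fell and INSIG1 was not called. They are from RefSeq (GRCh38.p14), read 5′ to 3′ on the strand of the gene, and end at or near a listed start. Capitals mark CCAAT, a box bound by NF-Y, a partner of SREBPs, on either strand (read as ATTGG on the opposite one) and the core of the sterol regulatory element (SRE), TCACNCCAC.
STARD4 (chr5:111512568-111512785, minus strand): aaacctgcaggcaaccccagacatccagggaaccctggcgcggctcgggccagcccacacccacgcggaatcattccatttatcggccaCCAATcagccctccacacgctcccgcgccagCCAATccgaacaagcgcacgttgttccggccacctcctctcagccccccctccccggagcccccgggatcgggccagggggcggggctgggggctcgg
ACLY (chr17:41919023-41919272, minus strand): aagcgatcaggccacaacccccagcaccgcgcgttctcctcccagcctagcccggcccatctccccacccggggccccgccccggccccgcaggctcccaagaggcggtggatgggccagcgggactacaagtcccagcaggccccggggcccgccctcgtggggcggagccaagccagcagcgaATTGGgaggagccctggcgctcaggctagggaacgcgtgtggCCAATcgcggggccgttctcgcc
SREBF2 (chr22:41832855-41833104, plus strand): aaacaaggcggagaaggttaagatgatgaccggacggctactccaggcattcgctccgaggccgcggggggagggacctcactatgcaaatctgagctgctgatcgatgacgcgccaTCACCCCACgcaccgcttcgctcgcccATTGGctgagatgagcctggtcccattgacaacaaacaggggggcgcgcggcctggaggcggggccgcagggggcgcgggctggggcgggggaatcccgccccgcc
INSIG1 (chr7:155297628-155297877, plus strand): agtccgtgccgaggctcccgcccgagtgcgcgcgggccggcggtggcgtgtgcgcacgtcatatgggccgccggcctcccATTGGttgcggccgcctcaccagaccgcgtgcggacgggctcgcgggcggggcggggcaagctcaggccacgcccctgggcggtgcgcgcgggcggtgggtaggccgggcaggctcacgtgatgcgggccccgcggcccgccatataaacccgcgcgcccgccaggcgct
The STARD4 stretch was cut to the 218 bases outside its exons, and the ACLY stretch lies inside the listed span of ACLY, before an inner start. The SRE core was found once, in SREBF2, as TCACCCCAC beginning 133 bases before the start, with a CCAAT box at 106. STARD4 had CCAAT boxes at 161 and 130 bases and ACLY at 65 and 23 bases before the start, while INSIG1 had 1 at 170 and an E-box (CACGTG) at 55. For STARD4 the bases were counted from the end of the uncut 250-base window (chr5:111512536-111512785). That end lies within its listed exons, past the end of the printed stretch. Over the 250 bases before each start, 28 of the 32 genes had 39 windows in the table. Some genes had overlapping windows, as SC5D and ACLY did, so 1 site could be counted more than once. Of the 39 windows, 24 (61.5%) held a CCAAT box, against 32% of all 35097 windows. An E-box was in 4 windows of 3 genes (10.3% against 6.34%) and the SRE core in 1 window (2.56% against 0.883%). These are exact matches of letters, searched on both strands, and are not measured binding sites. Sites with other letters, or outside the searched bases, would not have been found.

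Of the 6 SREBP control and uptake genes, 1 rose and 3 fell (66.7% called, beside 44.3% of all genes tested). STARD4, which carries cholesterol between membranes, rose, while SREBF2, INSIG2 and SREBF1 fell and INSIG1 and SCAP were not called. The 6 genes had a median log2 fold change of -0.11. STARD4 (chr5:111491422-111512567) had 52.9, 52.6 and 52.8 CPM in control and 93.6, 134 and 134 CPM after TGF-β1. All TGF-β1 libraries lay far above the narrow control range, and replicate 1 was the lowest of them. The log2 fold change was 1.19 ± 0.14 (SE; adjusted p = 0.000578), and 1.34 without TGF-β1 replicate 1. On the opposite strand, exons of CAMK4 cover 7082 bases, or 69.8%, of the STARD4 exons, and those of STARD4-AS1 cover 124. CAMK4 also rose, from 32.4 to 46.8 CPM (log2 fold change 0.53, adjusted p = 0.000326), and STARD4-AS1 rose from 15.6 to 73.7 CPM (2.23, adjusted p = 0.000526). The counting is not stated to use strand, so reads of these genes and of STARD4 cannot be told apart where they overlap.

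SREBF2 (chr22:41833105-41907308), which makes the SREBP that mainly drives sterol genes and whose own upstream stretch held the SRE core, had 120, 120 and 110 CPM in control and 93.8, 98.8 and 98.1 CPM after TGF-β1. The groups did not overlap, and the difference was -0.27 ± 0.06 in log2 (adjusted p = 0.0025). Exons of SHISA8 and SREBF2-AS1 lie opposite 17.0% and 9.88% of its exons, at mean levels of 0.128 and 0.114 CPM in control and 0.0584 and 0.0563 CPM after TGF-β1, against 117 and 96.9 CPM for SREBF2. INSIG2, an anchor that retains SCAP in the endoplasmic reticulum, had 30.4, 29.7 and 28.8 CPM in control and 25.1, 24.7 and 25.5 CPM after TGF-β1, a fall without overlap (-0.24 ± 0.06, adjusted p = 0.00733). SREBF1, which makes the SREBP isoforms that drive fatty acid genes, had 82.3, 81.4 and 73.0 CPM in control and 74.3, 65.6 and 67.2 CPM after TGF-β1. Here control replicate 3 lay within the TGF-β1 range, and the fall of -0.19 ± 0.07 (adjusted p = 0.043) was not called once a library was left out, be it control replicate 1 (-0.16) or 2 (-0.17), or TGF-β1 replicate 2 (-0.16) or 3 (-0.18).

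INSIG1, the other anchor and itself a target of SREBPs, had 170, 161 and 157 CPM in control and 164, 159 and 168 CPM after TGF-β1. The groups overlapped fully, with a log2 fold change of 0.01 ± 0.05, which turned negative when libraries were scaled by total counts only (-0.10). SCAP, the escort of the SREBPs, was at 44.1 ± 3.52 CPM (SD, n = 3) in control and 43.3 ± 3.37 CPM after TGF-β1.

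**Figure D2:**
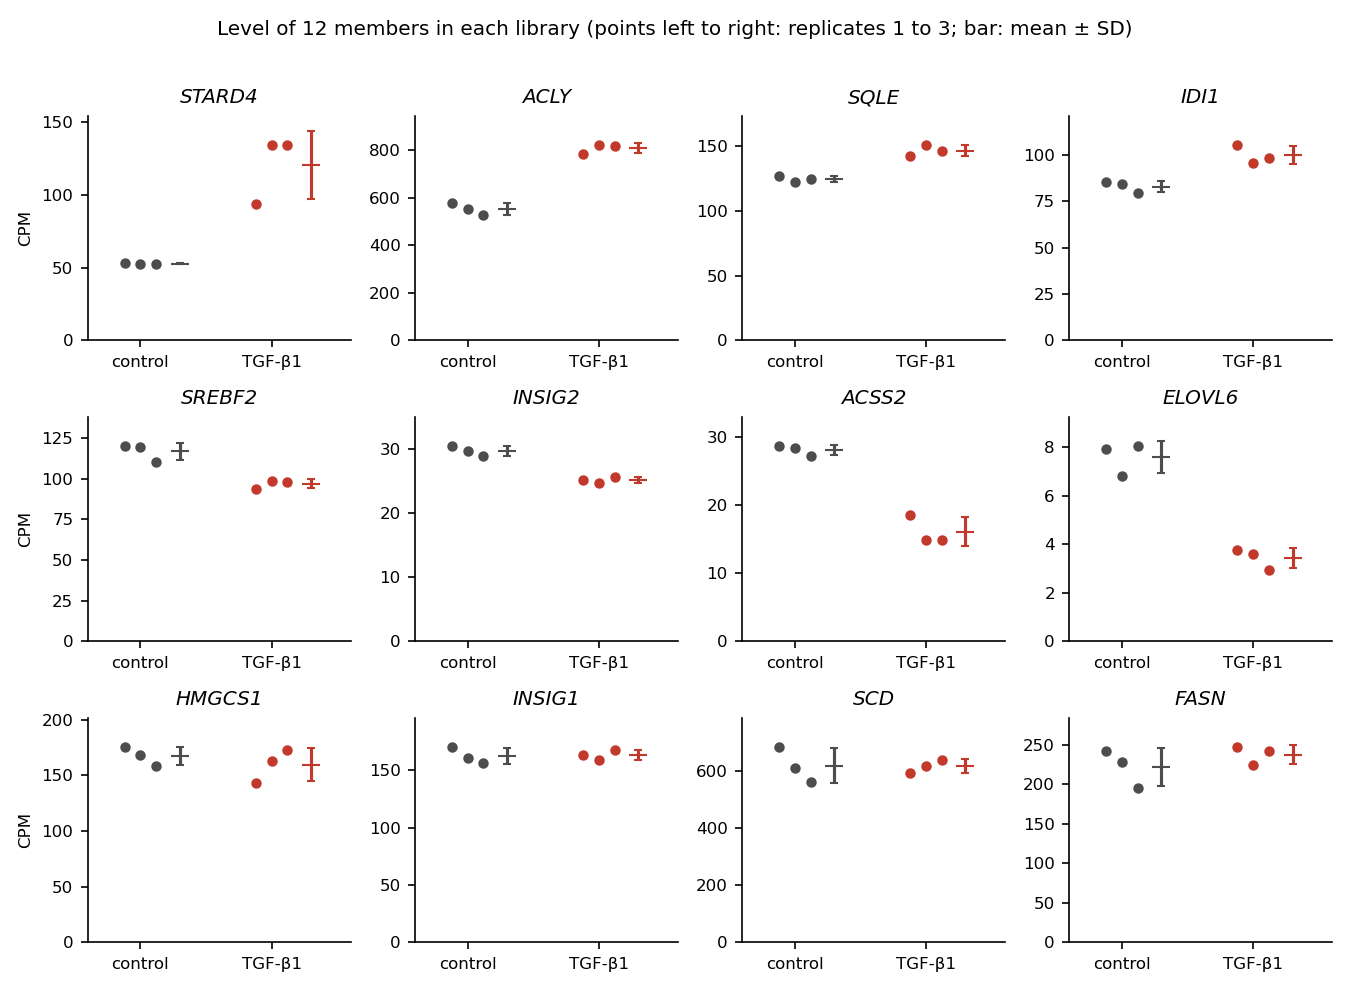
Level in CPM (y axis, from 0) of 12 of the genes in each control (grey) and TGF-β1 (red) library; points are replicates 1 to 3 from left to right and bars are mean ± SD. The 3 TGF-β1 points lie above control for STARD4, ACLY, SQLE and IDI1, below it for SREBF2, INSIG2, ACSS2 and ELOVL6, and overlap it for HMGCS1, INSIG1, SCD and FASN.

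Among the 18 sterol synthesis genes, 4 were higher and 2 lower after TGF-β1, with a median log2 fold change of -0.05. That was 33.3% called, beside 44.3% of all genes tested. The higher genes were IDI1, MVD, SQLE and FDFT1, the lower ones LSS and PMVK, and 12 genes were not called. When the entries of a name were summed, 3 were higher and 2 lower, since FDFT1 was no longer called. IDI1, which isomerises isopentenyl diphosphate, had 85.2, 84 and 79.3 CPM in control and 105, 95.8 and 98.2 CPM after TGF-β1. SQLE, the squalene epoxidase and a rate-limiting step of the late route, had 127, 122 and 125 CPM in control and 142, 151 and 147 CPM after TGF-β1. Neither gene had overlapping groups. The rises were small, 0.27 ± 0.06 in log2 for IDI1 (adjusted p = 0.00331) and 0.23 ± 0.05 for SQLE (adjusted p = 0.00325). With libraries scaled by total counts only, SQLE was not called (0.13, adjusted p = 0.0576).

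MVD, which decarboxylates mevalonate diphosphate, had 27.5, 25.5 and 21.9 CPM in control and 33.2, 28.5 and 28.8 CPM after TGF-β1. The groups were separate but close, and the rise of 0.27 ± 0.09 (adjusted p = 0.0344) lost its call when control replicate 2 (0.29) or 3 (0.19), or TGF-β1 replicate 1 (0.19), was left out. PMVK, the kinase one step earlier, had 13.3, 10.9 and 11.2 CPM in control and 10.2, 7.49 and 9.74 CPM after TGF-β1. Its fall of -0.37 ± 0.13 (adjusted p = 0.0388) lost its call when control replicate 1 (-0.27) or 3 (-0.40), or TGF-β1 replicate 2 (-0.24) or 3 (-0.42), was left out. In the main test these neighbouring steps of the mevalonate route moved in opposite directions. Neither call held throughout, as MVD was not called with total counts only (0.17), nor PMVK with DESeq2 or limma-voom (-0.37 in each). With control replicate 2 left out for MVD, and control replicate 3 or TGF-β1 replicate 3 for PMVK, the log2 fold change was no smaller in size although the call was lost.

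LSS (chr21:46188446-46228774), the lanosterol synthase that closes the sterol rings, had 15.4, 14.6 and 13.3 CPM in control and 7.37, 10.6 and 7.97 CPM after TGF-β1. The fall, without overlap, was -0.74 ± 0.13 (adjusted p = 0.00109). Part of the reads of LSS were counted in a copy of the gene on an alternate contig, an extra version of a stretch of the reference genome. That copy had 6.20, 1.68 and 8.61 CPM in control and 4.95, 5.09 and 4.63 CPM after TGF-β1, and its control values varied with no difference between groups called. Summed over both entries, LSS still fell (-0.55 ± 0.13, adjusted p = 0.0073), with 16.3 to 21.9 CPM in control and 12.3 to 15.7 CPM after TGF-β1.

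FDFT1, the squalene synthase at the branch to sterols, was the member whose value depended most on the entry. Its primary entry had 27, 19 and 21 counts in control and 81, 101 and 31 counts after TGF-β1, a log2 fold change of 1.62 ± 0.37 (adjusted p = 0.00671). This entry held only 1.72% to 2.85% of the counts of the gene in control libraries and 6.51% to 11.3% in TGF-β1 libraries. The copy on the alternate contig had 920, 1088 and 804 counts in control and 756, 791 and 445 counts after TGF-β1 (-0.52 ± 0.17, adjusted p = 0.0524). Summed, the difference was -0.41 ± 0.19 (adjusted p = 0.145), opposite in sign to that of the primary entry. No direction is given here for FDFT1 as a gene.

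**Figure D3:**
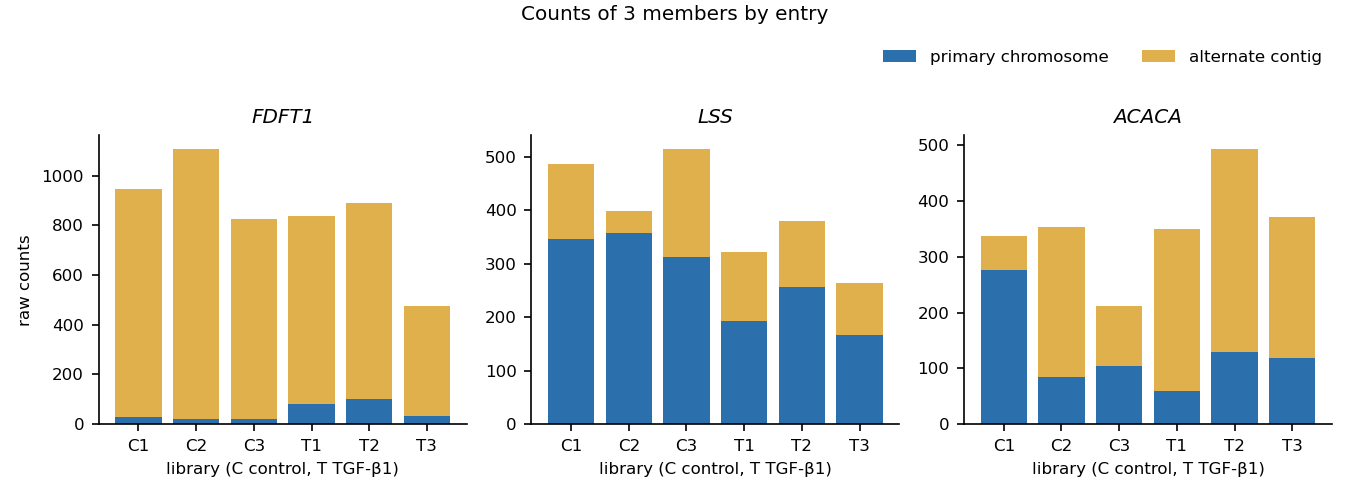
Raw counts (y axis, from 0) of FDFT1, LSS and ACACA in each library (x axis; C1 to C3 control, T1 to T3 TGF-β1), stacked by primary chromosome and alternate contig. Most FDFT1 counts lie on the alternate contig, the larger share of LSS on the primary chromosome, and the division of ACACA varies between libraries, with 17.1% to 81.9% on the primary chromosome.

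The other sterol synthesis genes lay within a narrow band, from -0.23 ± 0.25 in TM7SF2, a sterol reductase with 17 to 26 counts per library, to 0.18 ± 0.08 in NSDHL, a sterol dehydrogenase. NSDHL was higher without overlap but not called. HMGCS1, which makes the HMG-CoA that enters the mevalonate route, had 175, 168 and 158 CPM in control and 143, 162 and 173 CPM after TGF-β1. The groups overlapped, with TGF-β1 replicate 1 the lowest library (-0.07 ± 0.07). MVK, the first mevalonate kinase, was at -0.06 and FDPS, which makes farnesyl diphosphate, at -0.01. Of the enzymes that trim lanosterol, CYP51A1, the lanosterol demethylase, was at 0.10, MSMO1, the C4-methyl oxidase, at -0.04 and HSD17B7, the 3-ketosterol reductase, at -0.11. EBP, the sterol isomerase, was at -0.05 and SC5D, the sterol desaturase, at -0.07. DHCR7, which makes cholesterol from its last precursor on one branch, had a mean of 71.5 ± 8.74 CPM (SD, n = 3) in control and 80.8 ± 7.07 CPM after TGF-β1 (0.18), and was called when control replicate 1 was left out (0.27). ACAT2, which joins acetyl-CoA units at the start of the route, was lower without overlap but not called (-0.10, adjusted p = 0.174). TCP1 lies opposite 24.9% of its exons, and SOD2, which fell from 1308 to 411 CPM (-1.67), opposite 98 bases. RUSC1-AS1 lies opposite 28.0% of the exons of FDPS, and both FDPS and HSD17B7 have near-identical pseudogene copies with which reads could be shared.

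In fatty acid synthesis and desaturation, 2 genes were higher, 2 lower and 4 not called, with a median log2 fold change of -0.02. The share called was 50%, beside 44.3% of all genes tested. The genes that supply acetyl-CoA moved apart. ACLY (chr17:41866916-41930542), which cleaves citrate into cytosolic acetyl-CoA, had 576, 553 and 528 CPM in control and 783, 822 and 818 CPM after TGF-β1. ACSS2 (chr20:34874942-34927962), which makes acetyl-CoA from acetate, had 28.7, 28.5 and 27.2 CPM in control and 18.6, 14.9 and 14.9 CPM after TGF-β1. Both had separate groups. ACLY rose 1.46-fold (0.55 ± 0.06 in log2, adjusted p = 1.58e-05) and ACSS2 fell to 0.574 of control (-0.80 ± 0.09, adjusted p = 3.28e-05), and without TGF-β1 replicate 1 they were at 0.56 and -0.93. Per length, ACLY was at 404 TPM (a level scaled to gene length) in control and 544 TPM after TGF-β1, against 29 and 15.2 TPM for ACSS2.

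ELOVL6 (chr4:110045846-110199199), the elongase that takes palmitate to stearate, had 7.93, 6.83 and 8.05 CPM in control and 3.76, 3.60 and 2.96 CPM after TGF-β1. Every TGF-β1 library lay well under every control library, at -1.14 ± 0.14 in log2 (adjusted p = 6.49e-05). FASN, the synthase that makes palmitate, had 242, 228 and 195 CPM in control and 247, 225 and 242 CPM after TGF-β1, and the groups overlapped (0.10 ± 0.08, adjusted p = 0.317). SCD, the desaturase that makes oleate, had 685, 610 and 564 CPM in control and 593, 618 and 641 CPM after TGF-β1, also with full overlap (adjusted p = 0.968). Thus neither the step before ELOVL6 nor the desaturase after it was called.

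FADS1 and FADS2 make polyunsaturated fatty acids and lie next to each other on opposite strands, with 142 exonic bases shared. FADS1 was at 158 ± 2.76 CPM (SD, n = 3) in control and 153 ± 3.58 CPM after TGF-β1. It was lower without overlap, by a narrow margin, but not called (-0.05). FADS2 rose from 15.4 ± 1.22 to 18.1 ± 1.52 CPM without overlap, at the edge of the threshold (0.23 ± 0.09, adjusted p = 0.0499). That call was lost when any one of the 6 libraries was left out, with log2 fold changes from 0.15 without TGF-β1 replicate 1 to 0.29 without control replicate 2. ACACA, whose product carboxylates acetyl-CoA to malonyl-CoA, was split between entries in a way that varied from library to library. Its primary entry had 276, 85 and 104 counts in control and 60, 130 and 118 counts after TGF-β1 (-0.60 ± 0.67, adjusted p = 0.525). Without control replicate 1 the value was 0.16, and over both entries it was 0.43 ± 0.24 (adjusted p = 0.213).

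Levels per length spanned a wide range within each role. In control, ACLY had the 404 TPM given above, SCD 393, ACAT2 229, EBP 226, INSIG1 176 and MSMO1 166. STARD4, lowest of the SREBP control and uptake genes, had 17.3, while ELOVL6 had 3.70 and TM7SF2 1.95 TPM. The primary entries of ACACA (1.94) and FDFT1 (0.756) were lower still, but their counts were split with an alternate contig. ELOVL6 was a large fall from a low level, and ACLY a moderate rise from a high one.

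Other genes of these pathways were read from the same fit, in which 44.3% of all genes tested were called, 22.2% higher and 22.1% lower. Of 11 further genes of SREBP processing and sterol sensing, 1 was higher and 4 lower. NR1H3, the liver X receptor alpha, was higher (0.58 ± 0.17). ERLIN2 (-0.46 ± 0.06) and ERLIN1 (-0.30 ± 0.05), which bind SREBP complexes, and MBTPS2 (-0.27 ± 0.06), a protease that releases SREBPs, were lower. Of 13 tested genes of sterol uptake, transport, esterification and oxidation, 5 were higher and 4 lower. NPC1, which exports cholesterol from lysosomes, fell from 164 ± 5.52 to 69.3 ± 2.70 CPM (-1.25, adjusted p = 2.46e-08), while its soluble partner NPC2 rose from 123 ± 1.53 to 179 ± 8.40 CPM (0.54, adjusted p = 1.2e-05). The neutral cholesterol ester hydrolase NCEH1 fell (-1.09 ± 0.05), as did SOAT1, which makes cholesterol esters (-0.35 ± 0.06). The cholesterol exporter ABCA1 (0.55 ± 0.09) and the sterol carrier OSBP (0.33 ± 0.06) rose.

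In the isoprenoid branch, 4 of 8 tested genes were higher and 1 lower. NUS1 (0.47 ± 0.06) and DHDDS (0.26 ± 0.07), the subunits of the enzyme that makes dolichol precursors, were both higher, as was PDSS1 (0.26 ± 0.09) of coenzyme Q synthesis, while COQ2 of the same route was lower (-0.26 ± 0.08). Of 24 tested genes of fatty acid supply, elongation and activation, 4 were higher and 9 lower. ME1, a source of NADPH (0.70 ± 0.05), ELOVL4 (0.43 ± 0.10) and FABP5 (0.34 ± 0.11) had the largest rises. ELOVL2 (-0.77 ± 0.06), an elongase of polyunsaturated chains, ACSL5 (-0.76 ± 0.08), which activates fatty acids, and ACACB (-0.66 ± 0.10), the mitochondrial acetyl-CoA carboxylase, had the largest falls. Medians were 0.05, -0.02, 0.14 and -0.09 for the 4 lists, beside 0.01 for all genes tested. The shares called were 45.5%, 69.2%, 62.5% and 54.2% in the same order, beside 44.3% of all genes tested.

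**Figure D4:**
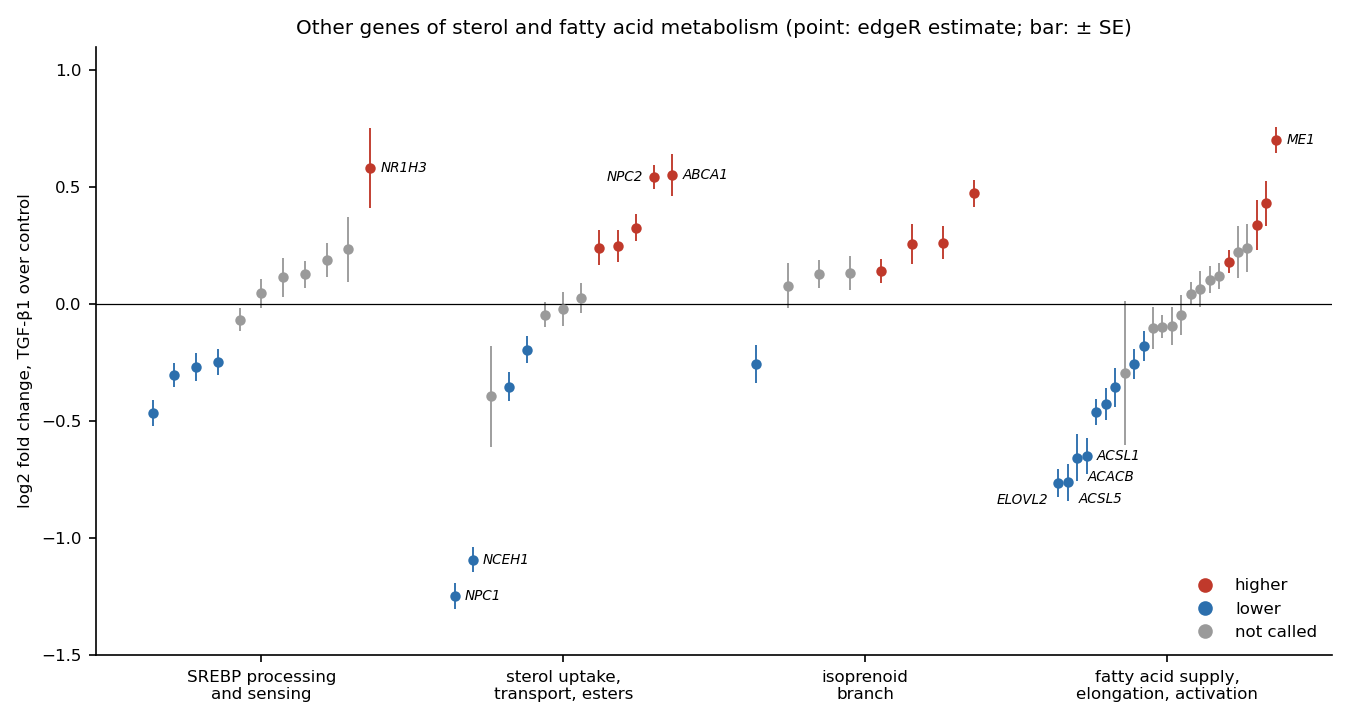
Log2 fold change (y axis, TGF-β1 over control, 3 libraries a group) of the tested genes of 4 further lists (x axis), ordered within each list. Points are edgeR estimates, bars are ± SE, colours give the call and called genes with a size of at least 0.5 are named. NPC1 and NCEH1 lie lowest and ME1 highest.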

How the data were processed

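RNA-seq of poly(A) RNA was compared between 3 control and 3 TGF-β1 libraries of HK2 cells, grouped by the treatment in their labels. The authors deposited raw counts per gene together with their TPM and FPKM values. FPKM values were not used, and TPM served only for levels between genes. Per the submitters' processing notes, hg38, CASAVA, featureCounts 2.0.1 and DESeq2 1.16.1 were used. The aligner, the annotation release and the strand setting are not given in the sources used here. Each table held 42095 entries, and 7 broken records per table were rejoined. The 598 entries without a name (0.396% to 0.464% of counts) were left out, and 4519 named entries lay on alternate contigs.

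Genes were filtered with filterByExpr of edgeR 4.0.16 (minimum count 10), scaled with TMM and tested with the quasi-likelihood F test, two-sided, with Benjamini-Hochberg adjustment over all 14860 genes tested. A gene was called at an adjusted p under 0.05. CPM used the TMM-scaled library size. SE was the size of the log2 fold change over the root of F. At 21.9 to 26.9 megacounts per library, genes with few counts such as TM7SF2 (17 to 26) were the least precise. The alternatives were DESeq2 1.42.0, limma-voom (limma 3.58.1), RLE size factors, scaling by total counts alone, every gene with a count, a mean of at least 50 counts, a replicate block, summed entries of a name, and each library left out in turn. R 4.3.3, Python 3.11.15, pandas 2.3.3 and matplotlib 3.10.9 were used.

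All members were named, and from each further list the 3 largest rises and 3 largest falls among called genes. The members and lists were chosen with earlier results of these data known. Some genes of these pathways are not reported here.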

Additional observations from a re-analysis of the deposited data

Results flagged for a closer look

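The copy of ACACA on an alternate contig, which entered the results above only where entries were summed or shown side by side, held signal in every library. It had 2.70, 11.0 and 4.6 CPM in control and 11.1, 15.0 and 12.1 CPM after TGF-β1, with a mean of 12.7 CPM after TGF-β1, and was singled out as a value outside the main measurement that lay above control. The groups did not overlap, narrowly, as 55.6% of the genes tested did not, and the difference was not called (log2 fold change 1.06 ± 0.57, adjusted p = 0.208, edgeR). The division of ACACA counts between entries varied by library, with 24.1% to 81.9% on the primary entry in control and 17.1% to 31.8% after TGF-β1.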

How the results depend on the processing

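Members called ranged from 11 to 16 over the alternatives, against 14. STARD4, ACLY, IDI1, SREBF2, INSIG2, ACSS2, ELOVL6 and LSS kept direction and call under every alternative run. With total counts only, 2 sterol synthesis genes were higher and 4 lower, against 4 and 2, SQLE and MVD were lost, and SC5D, ACAT2 and FADS1 were called lower. DESeq2 and limma-voom each called 1 sterol synthesis gene lower, and leaving out 1 library gave 1 to 2. The higher fatty acid genes were 1, against 2, with DESeq2, limma-voom, RLE size factors, total counts only, a mean of at least 50 counts, and 1 (lowest and highest) with any library left out, since FADS2 was lost. PMVK was also lost with DESeq2 and limma-voom, and SREBF1 with limma-voom.

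Signs turned for FDFT1 (-0.41) and ACACA (0.43) with summed entries, CYP51A1 (-0.0026), INSIG1 (-0.10) and FASN (-0.0050) with total counts only, INSIG1 (-0.0154) with a mean of at least 50 counts and SCD (0.0038) with all genes that had a count. With 1 library left out, ranges crossing 0 were -0.0624 to 0.0428 for FDPS, -0.11 to 0.0001 for EBP, -0.0198 to 0.0417 for INSIG1, -0.105 to 0.0129 for SCAP, -0.91 to 0.16 for ACACA and -0.0683 to 0.0747 for SCD. Apart from FDFT1, none of these was called in the main test. The cause of these shifts was not tested.

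Same-numbered libraries deviated together with correlations of 0.111, -0.012 and 0.076, and control replicate 2 correlated best with TGF-β1 replicate 1 (0.044), so the numbers were not taken as pairs. With the replicate block, 6790 genes and 16 members were called, against 6582 and 14, the added members being NSDHL (0.18) and DHCR7 (0.18), with 6 sterol synthesis genes higher. Genes called over the libraries left out ranged from 5333 to 7196.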
